A study of Mus musculus with 12 samples.

Results

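The 5 genes described here are Cntn1, Slc27a6, Aqp9, Cd93 and Acpp, which were chosen because they were named for, or had among the largest rises in, the YFP+ effector memory CD4+ T cells of this series. They are 5 of the 17523 genes listed and of the 15587 genes that passed a filter on low values, and all 5 were found by their Entrez identifiers. Because the YFP+ and YFP- effector memory libraries were used to choose them, their differences between those fractions are given as a description with no test. The naïve libraries took no part in the choice, and the test of YFP+ against YFP- cells was made there.

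RNA was measured in sorted splenic CD4+ T cells of unmanipulated Gr/fr mice, a GM-CSF reporter and fate reporter line. In these mice the Csf2 locus, which encodes GM-CSF, drives a Cre recombinase together with BFP, and the recombinase switches on eYFP from the Rosa26 locus for good, so that YFP marks cells with present or past GM-CSF expression and their progeny. Naïve cells (CD62L+CD44-) and effector memory cells (TEM, CD62L-CD44hi) were each split by YFP. The 4 resulting groups have 3 libraries each, and all mice carry both alleles. The Gr/fr mice from which CD4+ T cells were sorted were 2 to 3 months old. YFP- cells may include cells that made GM-CSF without recombination.

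The proteins act at different places of the cell. Contactin 1, from Cntn1, is a GPI-anchored adhesion molecule of neurons, where it pairs with Caspr at the paranode and binds Notch receptors. Slc27a6 encodes a member of the fatty acid transport protein family, and Aqp9 encodes an aquaglyceroporin that passes water, glycerol and urea and that is required in CD8+ T cells for glycerol uptake during memory formation. CD93 is a transmembrane protein of the C-type lectin domain group 14 family, known from endothelium, myeloid cells and early B cells. Acpp encodes prostatic acid phosphatase, whose transmembrane form removes phosphate from extracellular AMP and so yields adenosine.

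Promoter sequences from RefSeq (GRCm38.p6) were held for 3 of the 5 genes, with 3 annotated starts for Cntn1, 2 for Aqp9 and 1 for Acpp. Since these genes rose in the same cells, the 250 bases before each of the 6 starts were searched on both strands for short motifs of factors that are active in T cells. The letters were TGANTCA for AP-1, AGGTGTG for T-box factors, TGTGGT for RUNX, AGGTCA for ROR and AGATAA for GATA, and none of the matches found overlapped another. Of the 6 promoters, 1 of Aqp9 held an AP-1 match and that of Acpp held a GATA match. The 30 bases around each are shown in the direction of the gene with the match in capitals, the first at chr9:71162640-71162669 and the second at chr9:104337933-104337962, both on the minus strand.
Aqp9, start 2: ccatttggtgacTGAGTCAtctgaaacaaa
Acpp: cggctgtggaaaAGATAAagatgtgcccgg
The Aqp9 match lay 24 to 18 bases before its start, and the Acpp match lay 228 to 223 bases before its own. Among all 32851 promoters of the same length, 6.75% held the AP-1 letters and 9.99% the GATA letters, so that these matches are common. The shares were 5.10% for T-box, 14.05% for RUNX and 14.02% for ROR, and none of the 6 promoters matched those.

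Each library held between 40974124 and 57822269 reads on genes. Levels are given as normalized counts, which are reads on a gene divided by the size factor of the library. In all 12 libraries, 7 defining CD4+ T cell genes such as Cd3e, Cd4 and Lck summed to between 168906 and 244017 normalized counts. Between the TEM fractions 0 of the 7 were called as different. For Cd5 and Lck all YFP+ TEM libraries still lay above all YFP- TEM libraries, as for 10.6% of all genes. One naïve library stood apart from the rest. In replicate 2 of the naïve YFP+ cells, 206 genes with at least 50 normalized counts were 4-fold or more above each of the other 5 naïve libraries, whereas the other naïve libraries had 0 or 1 such genes. Its endothelial markers summed to 1584 normalized counts against 17.3 to 161 in the other naïve libraries, its monocyte and macrophage markers to 4481 against 483 to 1166, and its neutrophil markers to 522 against 0.930 to 72.1.

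Csf2, whose locus drives the fate reporter, was low in all libraries but those of YFP+ TEM cells. It had 139, 55.9 and 152 normalized counts in replicates 1, 2 and 3 of YFP+ TEM cells and 2.46, 0.741 and 2.04 in YFP- TEM cells. No naïve library exceeded 3.94.

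Cntn1 was all but restricted to YFP+ TEM cells, with hardly a read in the other 3 groups. In YFP+ TEM cells it had 317, 143 and 256 normalized counts in replicates 1 to 3 (mean 239 ± 88.5, SD, n = 3). In YFP- TEM cells the values were 3.28, 1.48 and 3.06 (2.61 ± 0.98, n = 3). Every YFP+ TEM library was thus far above every YFP- TEM library. The reads themselves numbered 721 against 9, and with the depth of the libraries taken into account their ratio was 94.6, with a 95% exact binomial interval from 49.6 to 208 that covers counting error only. A single read was found in the 3 naïve YFP- libraries and 0 in the 3 naïve YFP+ libraries. Cntn1 reached 5 normalized counts in only 3 of the 12 libraries, so it passed the filter on low values solely through the group in which it was high. The gene lies at chr15:92051152-92341967 on the plus strand, and its longest transcript has 24 exons and 5671 bases. It overlaps Gm36901 in RefSeq, which is not among the genes used here.

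In bulk RNA such as this, fewer cells of a type and less RNA per cell cannot be told apart, and this holds for each level given here.

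Slc27a6 had the same order of groups at higher counts. Its normalized counts were 1747, 807 and 1709 in YFP+ TEM cells and 36.9, 43.7 and 29.5 in YFP- TEM cells. The means were 1421 ± 532 and 36.7 ± 7.09 (SD, n = 3 each), a 38.7-fold difference, with no overlap. In naïve cells the gene was lower still. The YFP- naïve libraries had 13.8, 12.7 and 9.22 normalized counts (11.9 ± 2.41) and the YFP+ naïve libraries had 2.47, 8.85 and 2.79 (mean 4.71). All 3 YFP+ values lay below all 3 YFP- values, the opposite order to that in TEM cells. The difference was -1.33 ± 0.45 (SE) on the scale of log2(normalized count + 1), with an unadjusted p of 0.0115 and an adjusted p of 1 in the limma fit, so it did not pass the test. It rested on 14 against 32 reads in 3 libraries each. Slc27a6 lies at chr18:58556240-58612869 on the plus strand, with 10 exons and 2485 bases in its longest transcript.

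Aqp9 was present at a low level everywhere else and rose in YFP+ TEM cells. There it had 1782, 787 and 1916 normalized counts, against 52.5, 35.6 and 54.0 in YFP- TEM cells. The means of 1495 ± 617 and 47.4 ± 10.2 (SD, n = 3 each) differed 31.6-fold. The naïve libraries held 32.2, 19.1 and 36.9 normalized counts in YFP- cells and 43.3, 20.7 and 31.6 in YFP+ cells, which overlapped. Their difference of 0.10 ± 0.40 on the log2 scale was not significant (limma, adjusted p = 1). YFP- TEM and YFP- naïve libraries overlapped as well, and YFP- TEM and YFP+ naïve libraries did so too. Within each replicate number, however, the YFP- TEM library was above both naïve libraries, and the ratio of reads in YFP- TEM to YFP- naïve cells was 1.60 (95% exact binomial interval 1.21 to 2.12, counting error only). The gene lies at chr9:71110659-71167849 on the minus strand. Its longest transcript has 7 exons and 2765 bases, and the gene overlaps Gm32714, which is not among the genes used here.

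Cd93 rose in YFP+ TEM cells too, but was uneven in naïve cells. The YFP+ TEM libraries had 1131, 520 and 1339 normalized counts (997 ± 426, SD, n = 3), and the YFP- TEM libraries had 46.8, 20.0 and 42.8 (36.5 ± 14.4), a 27.3-fold difference with no overlap. Naïve YFP- cells had 2.30, 17.0 and 0 normalized counts. Naïve YFP+ cells had 8.66, 166 and 3.72. The value of 166 came from the replicate that stood apart, and in both naïve fractions replicate 2 was the highest. The naïve difference was 2.33 ± 1.21 (SE) on the log2 scale with limma (unadjusted p = 0.0766, adjusted p = 1), and it was 0.79 without that library. Cd93 lies at chr2:148436651-148443535 on the minus strand and has 2 exons and 6677 bases.

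Acpp differed from the other 4 genes in both size and shape. Its normalized counts were 2592, 2410 and 2529 in YFP+ TEM cells (2510 ± 92.7, SD, n = 3) and 953, 926 and 954 in YFP- TEM cells (944 ± 16.3), a 2.66-fold difference with the least spread of the 5 genes. In naïve YFP- cells it had 2240, 1954 and 2228 normalized counts (2141 ± 162), and in naïve YFP+ cells 2027, 1761 and 2063 (1950 ± 165). The group that stood out was therefore YFP- TEM, where Acpp was at 0.441 times its level in naïve YFP- cells, while YFP+ TEM cells were at 1.29 times the naïve YFP+ level. The description of a gene strongly raised in YFP+ memory cells fits Acpp less well than the other 4. Between the naïve fractions Acpp differed by -0.14 ± 0.086 (SE) on the log2 scale (limma, adjusted p = 1). The YFP+ library was the lower one in 3 of 3 pairs of the same replicate number. Acpp lies at chr9:104288240-104337722 on the minus strand, and its longest transcript has 11 exons and 4483 bases.

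**Figure D1:**
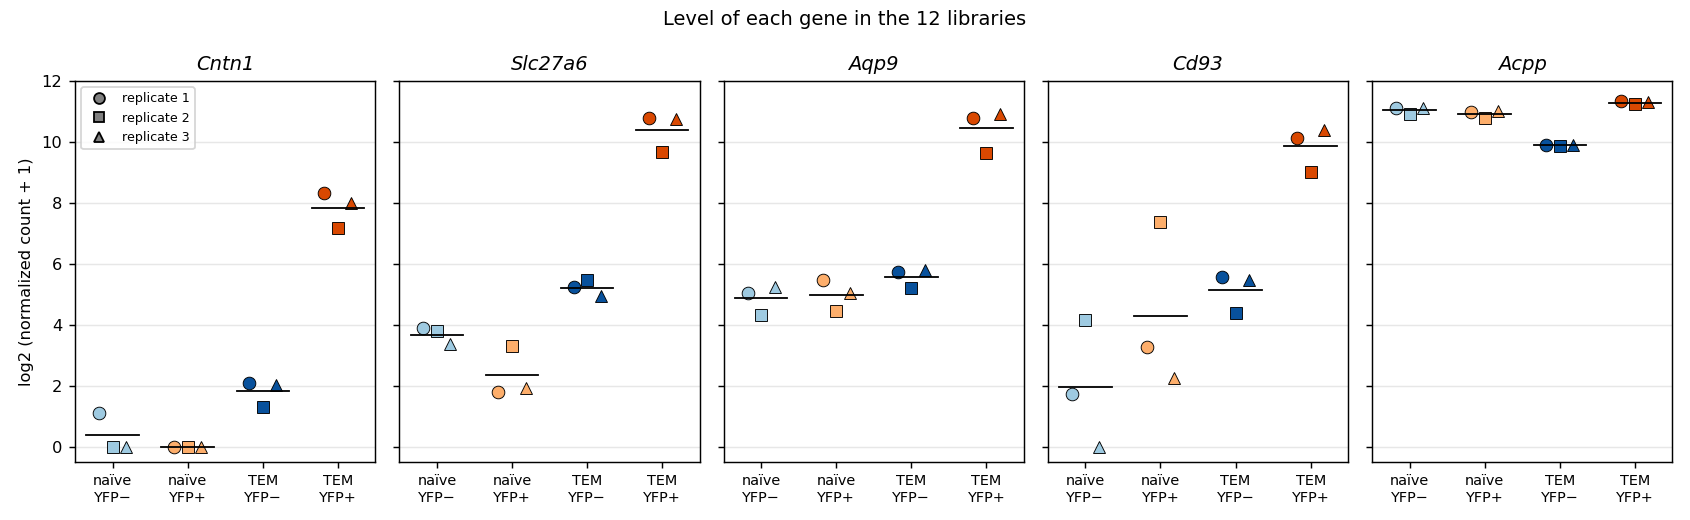
Level of each of the 5 genes in the 12 libraries. The vertical axis is log2(normalized count + 1), each symbol is 1 library (circle, square and triangle for replicates 1, 2 and 3), and the bar is the mean of the 3. In YFP+ TEM cells Cntn1, Slc27a6, Aqp9 and Cd93 lie well above all other groups, while Acpp is at 2510 normalized counts there, close to its 2141 and 1950 in naïve cells, and lowest in YFP- TEM cells at 944.

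For all 5 genes the 3 YFP+ TEM libraries lay above the 3 YFP- TEM libraries, which was true of 10.6% of the genes tested, and this is how they were chosen. The share of all tested genes called higher in YFP+ TEM cells at an adjusted p of 0.05 or less was 2.3%, and 4.67% were called lower, 1087 genes in all, or 1869 with the replicate number as a block. All 3 YFP+ TEM libraries also exceeded all 9 other libraries for each of the 5, a pattern of 630 genes (4.04%) that the choice favours. In the order of the rise among 293 genes, those called higher without overlap and averaging 50 or more normalized counts, Cntn1 had the largest difference at 6.02 on the log2 scale. With a pseudocount of 5 in place of 1, it was 4.94 for Cntn1 and 5.03 for Slc27a6, so this first place depends on the pseudocount. Slc27a6 was 3rd at 5.17, Aqp9 4th at 4.87 and Cd93 5th at 4.71. Klrc1, an inhibitory NK receptor gene, came 2nd at 5.64, and the genes after Cd93 were B3galt2 (4.46), Itga1 (4.21), Mmp9 (4.04), Trgc2 (4.02) and Trav11d (3.96). Acpp was 97th at 1.41, next to Tafa3 (1.42), Gm4956 (1.42), Klrd1 (1.41) and Lmo4 (1.38).

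In the naïve comparison, which the choice did not use, 0 of the 5 genes was called by limma, edgeR or DESeq2 or with the replicate number as a block. Cntn1 had 1 read in naïve YFP- and 0 in naïve YFP+ cells. It could therefore be neither called nor without overlap there, and the counts out of 5 are informative only for the other genes. At an unadjusted p under 0.05 limma gave 1 of 5 (Slc27a6), beside 3.32% of all genes. EdgeR and DESeq2 gave 2 of 5 (Slc27a6 and Cd93), beside 3.89% and 4.56% of all genes, and the blocked fit gave 2 of 5 (Slc27a6 and Acpp), beside 5.68%. The share of all genes called here was 0.00642% higher (1 gene, Chn2) and 0% lower, or 6 genes with the block, although 388 genes were higher and 130 lower at an unadjusted p under 0.05. With no overlap, 0 of 5 genes were higher in YFP+ naïve cells, against 3.16% of all genes, and 1 of 5 (Slc27a6) was lower, against 2.21%. Without replicate 2 of the naïve YFP+ cells the differences were -1.81 for Slc27a6 (adjusted p = 0.596), 0.37 for Aqp9 and -0.06 for Acpp (limma, adjusted p = 1 for both).

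TEM cells were also set beside naïve cells within each YFP fraction, as a description, because the TEM libraries had been used to choose the genes. Among YFP- cells, Cntn1, Slc27a6 and Cd93 were above naïve cells without overlap, which held for 33.9% of all genes. Acpp was below them without overlap, as 25.2% of all genes were, and Aqp9 overlapped. For Cntn1 the difference among YFP- cells rested on 9 reads in TEM against 1 read in naïve cells. The exact binomial interval of its read ratio, from 0.941 to 298, included 1, so this difference was not beyond counting error. Among YFP+ cells, all 5 genes were above naïve cells without overlap, as 27.4% of all genes were. The genes were chosen for high values in these YFP+ TEM libraries, so this count follows largely from the choice. Slc27a6 spanned 4.71 to 1421 normalized counts in these cells, or 302-fold, and Cntn1 had 0 reads in naïve YFP+ and 721 in YFP+ TEM cells.

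Levels of different genes can be compared only per length. Per kilobase of the longest transcript, the normalized counts in YFP+ TEM cells were 572 ± 214 for Slc27a6, 560 ± 20.7 for Acpp and 541 ± 223 for Aqp9 (SD, n = 3 each), which did not differ beyond their spread. Cd93 was lower at 149 ± 63.8 and Cntn1 lowest at 42.1 ± 15.6. With the mean length of all annotated transcripts instead, Aqp9 moved to 1198 and Acpp to 1335, so that the order of the 3 most abundant genes depended on which transcript is counted.

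The 3 YFP+ TEM libraries were not equal. Replicate 2 was the lowest of the 3 for all 5 genes and for Csf2. Relative to the mean of replicates 1 and 3, it held 0.499 of Cntn1, 0.467 of Slc27a6, 0.426 of Aqp9 and 0.421 of Cd93. Csf2 was at 0.385, whereas Acpp was at 0.941. Replicate 2 was the lowest for 83.6% of the 359 genes called higher in YFP+ TEM cells, with a median ratio of 0.746, and for 37.8% of all genes tested, with a median ratio of 0.988. Without this library the log2 differences between the TEM fractions were 6.35 for Cntn1, 5.54 for Slc27a6, 5.28 for Aqp9, 5.13 for Cd93 and 1.44 for Acpp.

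The cells were gated on CD4 as well as on CD62L and CD44, a gate that CD4+ invariant NKT cells can pass and that removes NK cells and most γδ T cells. For 8 listed markers of invariant NKT and γδ T cells, the summed normalized counts were 12422, 6458 and 10495 in YFP+ TEM cells and 4086, 3551 and 3735 in YFP- TEM cells. Of the 7 tested, 5 rose: Zbtb16 by 3.25, Trav11 by 3.89, Trav11d by 3.96, Scart2 by 2.54 and Il23r by 1.73 on the log2 scale. Trdc, the constant segment of the δ chain, was at 273 ± 75.1 in YFP- and 221 ± 34.6 in YFP+ TEM cells (limma, adjusted p = 0.566). Constant segments of the γ chain, which are not on the list, went the other way. Trgc2 had means of 69.1 in YFP- and 1200 in YFP+ TEM cells, and Trgc4 had 48.4 and 590. These γ segments are named for their large rise or their likeness to a member. Replicate 2 was again the lowest YFP+ library for the summed markers. NK cell markers summed to 6304, 3886 and 6015 in YFP+ and 5140, 4317 and 6690 in YFP- TEM cells, which overlapped, and of 9 tested 5 rose (Ncr1, Klrb1c, Klra4, Klrk1 and Prf1) and 2 fell (Tyrobp and Fcer1g). The part of these cells in the levels of Cntn1, Slc27a6, Aqp9, Cd93 and Acpp was not tested.

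**Figure D2:**
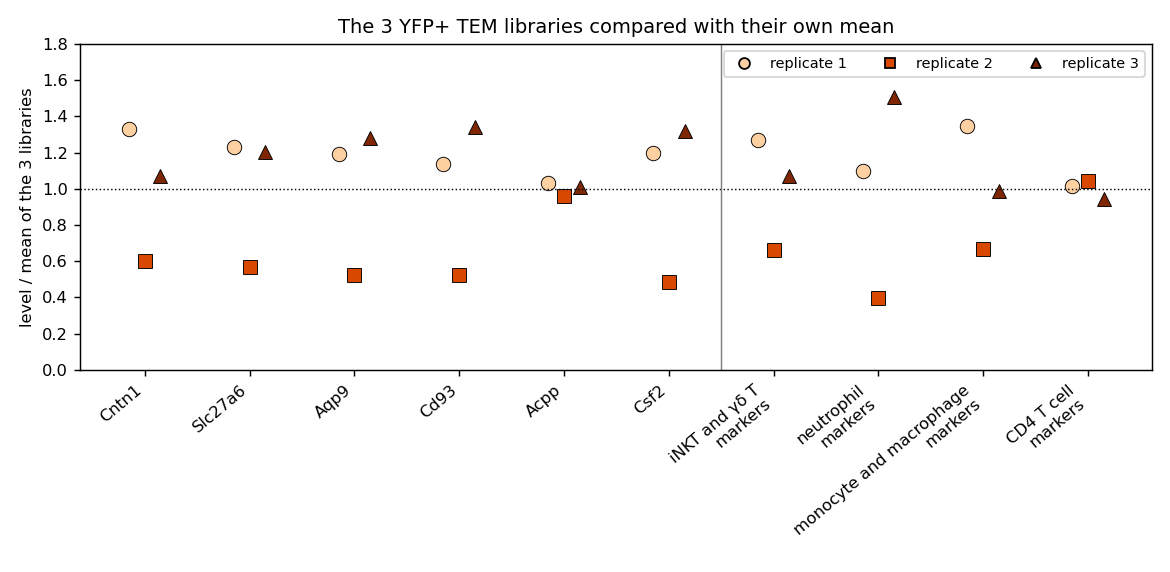
Level of each gene, and of 4 summed marker lists, in each YFP+ TEM library divided by the mean of the 3 libraries (vertical axis, no unit; the dotted line is 1). Replicate 2 (squares) is at 0.599 for Cntn1, 0.568 for Slc27a6, 0.526 for Aqp9, 0.522 for Cd93 and 0.484 for Csf2. Among the marker lists it is at 0.660 for invariant NKT and γδ T cells, 0.395 for neutrophils and 0.666 for monocytes and macrophages. It is at 0.960 for Acpp and 1.04 for the CD4+ T cell markers.

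Across the 12 libraries, 3 of the genes followed one another most closely. Pearson's r of log2(normalized count + 1) was 0.983 for Cntn1 with Aqp9, 0.977 for Cntn1 with Slc27a6 and 0.938 for Slc27a6 with Aqp9. Cd93 correlated with them at 0.797 to 0.844. Acpp correlated with the other 4 at only 0.151 to 0.445. These coefficients describe 12 libraries that share groups and mostly record the step to YFP+ TEM cells.

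The genes most like each member were sought among 11912 genes that averaged 50 or more normalized counts, again by Pearson's r over the 12 libraries. For Cntn1 they were Prrt1 (0.989), Aqp9, Trav11d (0.978), Slc27a6 and Trav11 (0.977). For Slc27a6 they were Cntn1, Prrt1 (0.976), Trgc4 (0.963), Klrc1 (0.960) and Edaradd (0.960). For Aqp9 they were Trav11d (0.994), Trav11 (0.992), Cntn1, Prrt1 (0.975) and F2r (0.972). Trav11 and Trav11d are near-identical variable segments of the T cell receptor α locus, which the invariant receptor of NKT cells uses, and reads may be split between the pair. Trav11d had 98.7 ± 29.5 normalized counts in naïve YFP-, 87.6 ± 32.5 in naïve YFP+, 117 ± 24.1 in YFP- TEM and 1935 ± 778 in YFP+ TEM cells (SD, n = 3 each). For Cd93 the genes given here were Gm5785 (0.959), Ptgs1 (0.953), Mgll (0.942) and Slc35f2 (0.935). Mgll is also one of the glycerol genes described with Aqp9 further on.

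For Acpp the nearest genes were Acoxl (0.962), Dse (0.961), Plcg1 (0.951), Slc11a2 (0.940) and Aqp3 (0.929). They shared its low value in YFP- TEM cells. Dse, for an epimerase of dermatan sulfate synthesis, had 1127 ± 130 and 1373 ± 172 normalized counts in naïve YFP- and YFP+ cells, 422 ± 52.2 in YFP- TEM cells and 1574 ± 332 in YFP+ TEM cells. All 3 YFP- TEM libraries lay below all 9 others for 608 of the 15587 genes, among them Acpp. Only 8 genes had both this pattern and the YFP+ TEM libraries above all others, namely Acpp, Slc11a2, Prxl2a, Padi2, Gpnmb, Mlycd, Impg1 and Mtmr1. Ranks gave other neighbours: by Spearman's rho, 0 of the 5 genes nearest to Cntn1, Slc27a6 and Acpp and 1 of the 5 nearest to Aqp9 and Cd93 were the same.

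**Figure D3:**
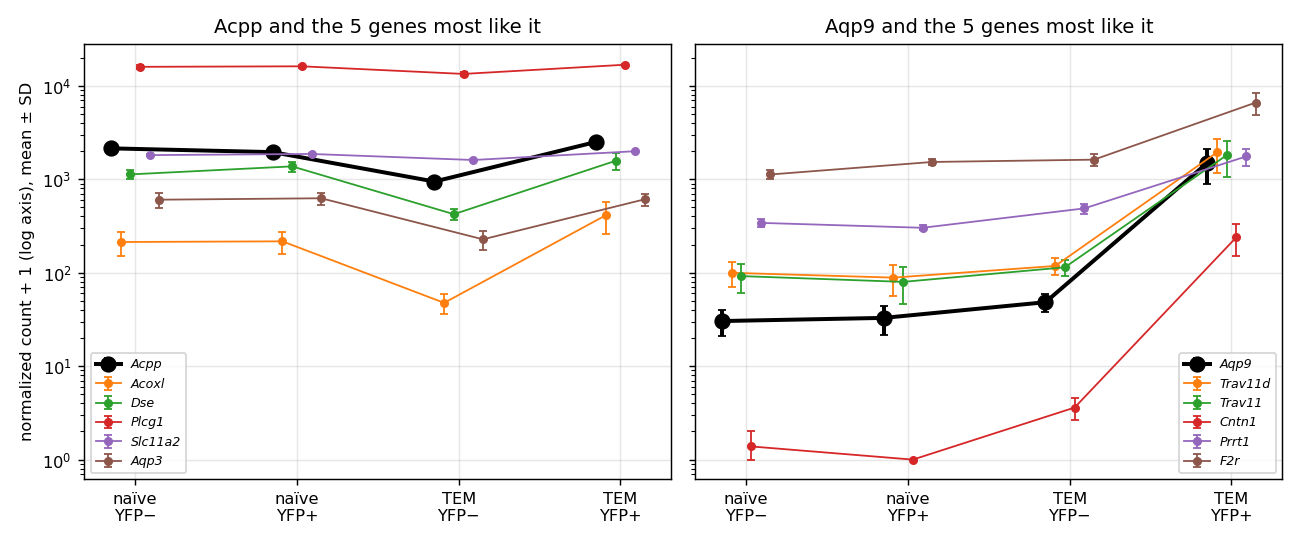
Mean ± SD of 3 libraries per group (vertical log axis, normalized count + 1) for Acpp and the 5 genes with the highest Pearson's r to it (left) and for Aqp9 and its 5 (right). The genes like Acpp dip in YFP- TEM cells, as Acpp does at 944, whereas the genes like Aqp9 are lower in 3 groups and step up in YFP+ TEM cells, where Aqp9 is at 1495. Among them F2r starts from a high level, with means of 1125, 1531 and 1620 in the 3 groups and 6620 in YFP+ TEM cells.

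Because CD93 is known from endothelial cells, myeloid cells and early B cells, its level was set beside markers of those cells. In YFP+ TEM cells the endothelial markers summed to 94.0, 132 and 830 normalized counts in replicates 1 to 3, against 1202, 771 and 1508 in YFP- TEM cells. The 2 fractions overlapped, and Cd93 was at 1131, 520 and 1339 in the same YFP+ and at 46.8, 20.0 and 42.8 in the same YFP- libraries. Of 9 tested endothelial markers, 1 fell (Cdh5) and 0 rose. The monocyte and macrophage markers summed to 4577, 2260 and 3347 in YFP+ and to 12958, 10366 and 20295 in YFP- TEM cells, and 5 of 10 fell (Adgre1, Cd68, Itgam, Spi1 and Clec4a1). Neutrophil markers moved in the same direction as Cd93, from 10.7, 38.5 and 39.7 in YFP- to 198, 71.5 and 273 in YFP+ TEM cells, but 0 of 5 tested passed the test. That test took its spread from all 12 libraries, the naïve library that stood apart included. In the naïve library that stood apart the neutrophil markers were at 522, higher than in any TEM library, and there Cd93 was at 166 and Aqp9 at 20.7. B cell markers summed to 998, 405 and 1040 in YFP+ against 495, 478 and 634 in YFP- TEM cells, and 2 of 8 rose (Cd79a and Ebf1). In naïve cells they summed to 553, 1342 and 938 in YFP- and 774, 2053 and 841 in YFP+ libraries. As for Cd93, replicate 2 was thus the lowest YFP+ TEM library and the highest library of both naïve fractions. The same held for the neutrophil markers and for the monocyte and macrophage markers, so this order was not particular to B cell markers. For the endothelial markers replicate 1 was the lowest YFP+ TEM library. The part of these cells in the level of Cd93 was not tested. None of the listed markers that were in the table was at 0 in all 3 YFP+ TEM libraries.

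**Figure D4:**
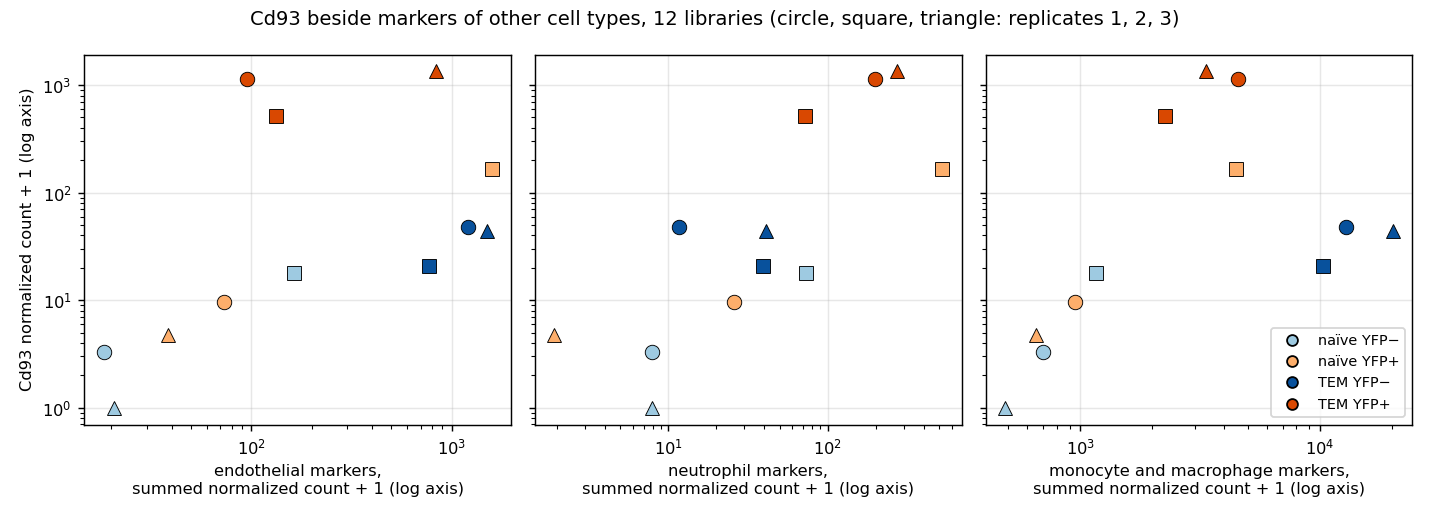
Cd93 (vertical log axis, normalized count + 1) against the summed endothelial, neutrophil, and monocyte and macrophage markers (horizontal log axes, summed normalized count + 1) in the 12 libraries. The 3 YFP+ TEM libraries hold 520 to 1339 normalized counts of Cd93 at endothelial sums of 94.0 to 830 and macrophage sums of 2260 to 4577, while the YFP- TEM libraries hold at most 46.8 at higher sums of macrophage markers.

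Other lists differed as well. Plasmacytoid dendritic cell markers were lower in YFP+ TEM cells, with sums of 9579, 8832 and 9514 against 19152, 13472 and 19516, and 6 of 8 fell. Platelet and megakaryocyte markers ranged from 55.6 to 123 against 46.7 to 68.1, with 0 of 2 tested called. The part of these cells in the levels of the 5 genes was not tested.

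Other genes of the families and pathways of the members were compared between the TEM fractions. Of 61 tested, 3 rose (4.92%) and 6 fell (9.84%), beside 2.3% and 4.67% of all genes. Relatives and partners of contactin 1 had 10 of 18 listed genes in the table and 6 tested, and 0 of the 6 were called in either direction (median log2 difference 0.13, against -0.01 over all genes tested). Its paranodal partner gene Cntnap1 had 180 ± 72.8 normalized counts in YFP- and 278 ± 114 in YFP+ TEM cells (adjusted p = 0.523), and L1cam had 2700 ± 499 and 3578 ± 642 (adjusted p = 0.194, or 0.0067 with the replicate block, where 1 of the 6 rose). Cntn2 was the only other contactin in the table and was not tested, with means of 1.04 and 1.27.

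Of 17 tested genes of fatty acid transport and activation, 0 rose and 3 fell (median -0.10), and with the replicate block Acsbg1 rose too (0.44, adjusted p = 0.0017). Slc27a2, a paralog of Slc27a6, fell from 32.5 ± 10.8 to 1.03 ± 1.04 normalized counts, a difference of -4.15 ± 0.56 (SE) on the log2 scale (limma, adjusted p = 0.00075). Acsl1, an acyl-CoA synthetase gene, fell by 0.70 (adjusted p = 0.0014), and Fabp5, a fatty acid binding protein gene, fell by 1.11 (adjusted p = 0.0020). The other tested transporters had differences of -0.10 for Slc27a1, -0.54 for Slc27a3, 0.20 for Slc27a4 and -0.87 for Slc27a5, none past the test. Within the family, the gene chosen for its rise and 1 paralog thus went in opposite directions.

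Among 13 tested aquaporins and glycerol genes, 2 rose and 1 fell (median 0.21), and 3 rose with the replicate block, the third being Pnpla2 (0.20, adjusted p = 0.0495). Aqp3, a second aquaglyceroporin gene, rose from 227 ± 50.6 to 610 ± 92.6 normalized counts, a log2 difference of 1.44 ± 0.20 (limma, adjusted p = 0.0010), and its naïve levels of 604 and 625 were close to that of YFP+ TEM cells. Mgll, for monoacylglycerol lipase, rose from 16.5 ± 3.89 to 177 ± 93.0 (log2 difference 3.21, adjusted p = 0.019). This call was lost when any of 5 single libraries was left out, with an adjusted p of up to 0.091. Lipe, for hormone-sensitive lipase, fell by 0.98 (adjusted p = 0.0021). Aqp1, Aqp4 and Aqp11 had differences of 1.56, -1.72 and 0.31 and did not pass the test.

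Of 9 tested genes of the CD93 family and its ligands, 0 were called in either direction (median log2 difference 1.15, against -0.01 over all genes tested). With the 6 TEM libraries compared alone, 1 was called higher. Between the naïve fractions the median of this list was larger still, at 1.85, against 0.0069 over all genes tested. Its highest sum, 6707 normalized counts, was in replicate 2 of the naïve YFP+ cells, the library that stood apart. Which cells held these transcripts was not tested. Thbd, the thrombomodulin gene, which lies 28463 bases from Cd93, had 6.99 ± 6.04 normalized counts in YFP- and 15.6 ± 13.7 in YFP+ TEM cells (adjusted p = 0.761). The C1q chain gene C1qa had 135 ± 38.6 and 382 ± 206 (limma, adjusted p = 0.682). C1qb had means of 122 and 352, and C1qc of 123 and 457. These chain genes were higher in YFP+ TEM cells without overlap, as 10.6% of all genes were, though none passed the test. C1qbp was lower without overlap, at means of 2499 and 2158. Clec14a was at means of 0.247 and 6.02.

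Of 16 tested acid phosphatase and ecto-nucleotidase genes, 1 rose and 2 fell (median 0.02). With the replicate block 4 rose, which added Enpp1, Adora2a and Acp5. Entpd5 rose by 0.50 ± 0.14 on the log2 scale (limma, adjusted p = 0.044), a call that was lost without any of 8 single libraries, with an adjusted p of up to 0.179. Adora2b, for a low-affinity adenosine receptor, fell from 73.5 ± 53.8 to 2.87 ± 4.13 normalized counts (log2 difference -4.60, adjusted p = 0.0038, or 0.057 with a pseudocount of 0.1). Dpp4 fell by 0.81 (adjusted p = 0.0034). Nt5e, which encodes CD73, another enzyme that makes adenosine from AMP, was at 9463 ± 1779 and 10060 ± 3868 (adjusted p = 0.974). The acid phosphatase genes Acp1, Acp2, Acp5 and Acp6 had differences of -0.11, -0.30, 0.26 and -0.08, none past the test without the block. In naïve cells 0 genes of the 5 lists were called, but with the replicate block Acsbg1, an acyl-CoA synthetase gene, was called higher in YFP+ cells (0.53 on the log2 scale, adjusted p = 0.024), at 567 to 688 against 384 to 488 normalized counts.

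**Figure D5:**
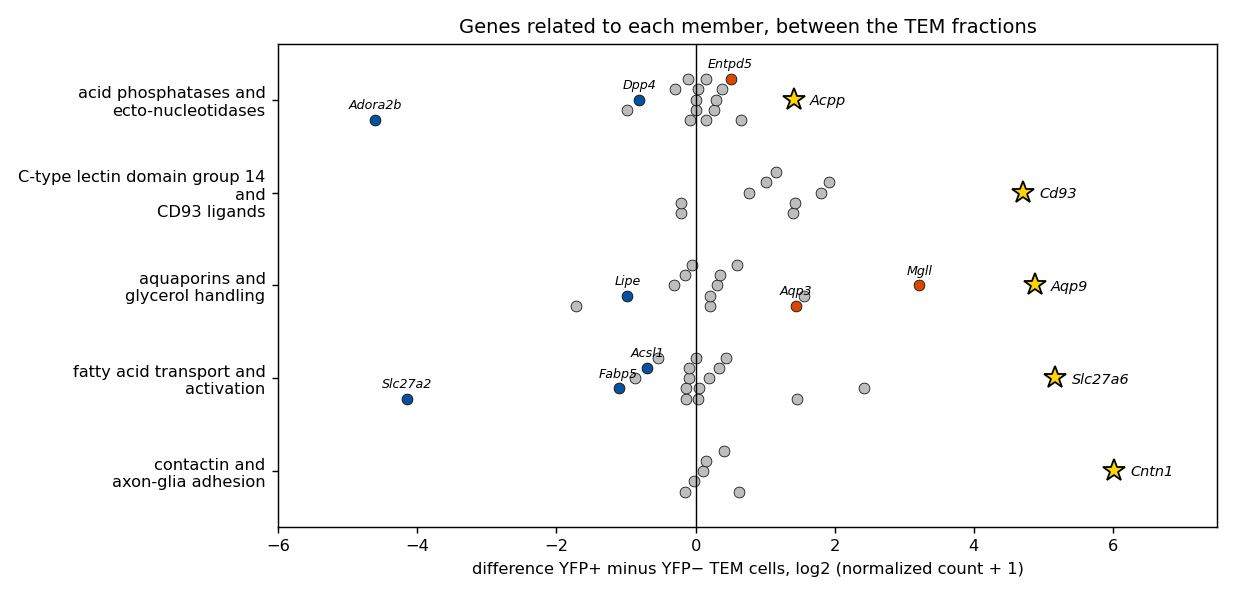
Difference between YFP+ and YFP- TEM cells (horizontal axis, log2 of normalized count + 1) for the tested genes of 5 lists, 1 row per list. Each point is 1 gene, in orange where higher, in blue where lower (adjusted p of 0.05 or less) and in grey where not called, and the star is the member, which was chosen by this difference; the members lie at 6.02, 5.17, 4.87, 4.71 and 1.41, to the right of all related genes in their rows.

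For 7 genes of these lists the TEM difference also differed from the naïve difference, by the interaction of the 2, which was called for 3.55% of all genes. They were Slc27a2, Acsl1, Fabp5, Aqp3, Lipe, Adora2b and Dpp4.

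Genes next to the members on the chromosome were compared as well. Of the 20 nearest tested genes, 2 on each side of each member, 0 rose and 2 fell in YFP+ TEM cells, beside 2.3% and 4.67% of all genes, with a median log2 difference of -0.0014, and 0 were called in naïve cells. Lrrk2, 235028 bases from Cntn1, fell from 1166 ± 486 to 130 ± 45.7 normalized counts (log2 difference -3.14, limma, adjusted p = 0.0053). Chsy3, 562471 bases from Slc27a6, fell from 46.5 ± 19.4 to 5.67 ± 2.63 (-2.83, adjusted p = 0.012), and this call was lost without replicate 3 of YFP- TEM cells (adjusted p = 0.072) or replicate 1 of YFP+ TEM cells.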

How the data were processed

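Total RNA from sorted cells was sequenced with a stranded total RNA kit. Per the paper's methods, the authors mapped reads to mm10 with DRAGEN, counted them on genes with Rsubread and used DESeq2. The annotation, the strand setting and the tool versions are not given in the sources used here. The deposited signal is the read count of a gene after the authors' division by a size factor per library. Dividing by the smallest step of each library gave whole reads for 100% of values (tolerance 1e-06), 40974124 to 57822269 per library, which limits the precision of low genes. No column was left unused.

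Entrez identifiers linked the genes to RefSeq (GRCm38.p6). A gene was tested when 3 or more libraries reached 5 normalized counts (15587 genes). The values log2(normalized count + 1) were fitted with a mean for each of the 4 groups and a moderated, trended variance (limma 3.58.1 under R 4.3.3), leaving 8 residual degrees of freedom. The variance of a gene was shared by the 4 groups, so an outlying naïve library also widened the error of the TEM comparison. Benjamini-Hochberg adjustment ran over all tested genes, and an adjusted p of 0.05 or less was a call. A fold change on this scale understates the change of low genes. Limma's p is two-sided. Exact permutation of 3 against 3 libraries cannot give a p below 0.1.

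The 5 members and the gene lists were chosen with earlier results of these data known. Besides the members and Csf2, genes named were the largest rises, those next to Acpp in that order, the 5 most alike, chromosomal neighbours, close family relatives, and called list genes. Named in addition after their values were seen were further list genes with no call, marker genes, Chn2, and the 8 genes that share the pattern of Acpp. The study gives n = 3 for the mice, but does not say which library came from which mouse. Libraries of the same number correlated after removal of group means (0.180, 0.338 and 0.356 in TEM, 0.306, 0.491 and 0.360 in naïve cells), so the numbers were taken to pair the libraries and a replicate block was fitted as an alternative. P values otherwise measure the spread between these libraries. Other alternatives were edgeR 4.0.16 and DESeq2 1.42.0 on the whole reads, TMM and quantile scaling, pseudocounts of 0.1 and 5, other filters, the 6 libraries compared alone, and each library left out. Only the limma fit was tested on simulated counts, which had the same spread setting for every gene, no outlying library and no pairing. Some genes that fall under these rules are not reported here.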

Additional observations from a re-analysis of the deposited data

Results flagged for a closer look

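For 2 of the 5 genes the naïve YFP+ library was the lower in 3 of 3 pairs of the same replicate number, opposite to the TEM fractions. Neither naïve difference passed the test. The difference between the effects was not tested because the TEM fractions chose the genes. The naïve difference of Cntn1 was negative as well, at -0.37, but rested on 1 read. Slc27a6 differed by -1.33 on the log2 scale between naïve YFP+ and YFP- cells, with all 3 YFP+ libraries lower, and by 5.17 between TEM fractions. Acpp differed by -0.14 in naïve cells, lower in 3 of 3 pairs but with overlapping groups, and by 1.41 in TEM cells.

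For 7 related genes the TEM difference differed from the naïve difference in limma's interaction test. The interaction on the log2 scale was -4.15 for Slc27a2 (adjusted p = 0.012), -0.66 for Acsl1 (0.029), -1.11 for Fabp5 (0.029) and 1.38 for Aqp3 (0.021). It was -1.03 for Lipe (adjusted p = 0.024), -5.13 for Adora2b (0.029) and -0.97 for Dpp4 (0.019).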

How the results depend on the processing

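With 1 choice changed at a time, the differences between TEM fractions kept their direction for the 5 genes (4.94 to 6.54 for Cntn1, 4.98 to 5.70 for Slc27a6, 4.64 to 5.44 for Aqp9, 4.34 to 5.26 for Cd93 and 1.39 to 1.51 for Acpp). None of the 5 was called in naïve cells under any alternative, and the lowest adjusted p was 0.596. Cntn1, with 1 read in naïve cells, could not be called there. The naïve difference of Aqp9 reversed to -0.15 with quantile scaling, and ranged from -0.17 to 0.37 with 1 library left out (-0.17 without naïve YFP- replicate 2, -0.14 without naïve YFP+ replicate 1).

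The count of genes called in naïve cells, 1, was 3 with a pseudocount of 0.1, 2 with TMM, 2 with edgeR, 12 with DESeq2, 0 with the 6 naïve libraries alone and 6 with the replicate block. It was 0 to 1 with 1 library left out, and 0 without YFP- replicate 1 or 2 or YFP+ replicate 1 or 3. The TEM count of 1087 became 1869 with the replicate block and 638 to 1253 with 1 library left out, the lowest without YFP- TEM replicate 3. The interaction count of 554 became 890 with the block, 838 with DESeq2 and 279 to 531 with 1 library left out (346 without YFP- TEM replicate 1 and 279 without YFP- TEM replicate 3). The causes were not tested. Apart from the genes named above, the block changed no call of a family or pathway gene in the TEM or naïve comparison. Without YFP+ TEM replicate 2, 3 acid phosphatase and ecto-nucleotidase genes were called higher. Depth limits Cntn1 outside YFP+ TEM cells and Slc27a6 in naïve cells, which rest on few reads.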
